A study of Bos taurus with 138 samples.

Results

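The DNA repair genes examined here were chosen by name. They comprise every row of the table whose symbol starts with FANC, or with ERCC, XRCC, RAD, MSH, MLH, PMS, BRCA or PARP followed by a digit, together with XPA, XPC, XAB2, BRIP1, NBN, MRE11, ATM, ATR, LIG3, LIG4, OGG1 and APTX. This rule found 81 of 16706 genes. UNG, the uracil glycosylase that the rule also lists, was not analysed here. The rule takes some genes by spelling alone, among them the cohesin subunit RAD21. Expression was measured in cattle material from slaughterhouse ovaries at 6 stages: germinal vesicle (GV) and in vitro matured metaphase II (MII) oocytes, and 2-cell, 8-cell, morula and blastocyst embryos made by in vitro fertilisation with semen of 1 Holstein bull. Cumulus cells and the zona pellucida were removed, and oocytes or embryos were lysed with cycloheximide, which holds ribosomes on mRNA. Each lysate, pooled from many oocytes or embryos, was spun on a sucrose gradient and cut into 10 fractions, F1 to F10, with 2 gradients (A and B) per stage. Whole oocytes or embryos of the same batches gave 3 transcriptome libraries (A, B and C) per stage, and no treatment was compared with an untreated control. F8, F9 and F10, the fractions regarded as polysomes, were summed within each gradient into a polysome pool, so that every stage had n = 2 pools and n = 3 transcriptomes.

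DNA repair is divided among pathways that each handle one kind of lesion. Mismatch repair corrects copying errors, base excision repair removes small altered bases, and nucleotide excision repair cuts out bulky lesions. Double-strand breaks are rejoined directly by end joining or copied from the sister chromatid by homologous recombination, while the Fanconi anemia pathway unhooks crosslinked strands and the kinases ATM and ATR signal damage to the cell cycle. An oocyte and early cleavage embryo work from stored maternal mRNA until the embryonic genome is activated, which in cattle happens mainly around the 8-cell stage, so that an mRNA can be present without being loaded with ribosomes and its loading can change without new transcription.

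Total expected counts were between 1229382 and 17342859 per fraction library (median 10334106), between 3269386 and 11812567 per transcriptome (median 10399576) and between 22543733 and 39380640 per polysome pool (median 31737584). The blastocyst transcriptomes were the shallowest, with at most 5256286 counts, where every other transcriptome had at least 8818270. Levels are given as CPM, the counts of a gene relative to all counts of its library, scaled with TMM factors, so each is a share of a library and not an amount per embryo, and in such bulk samples fewer expressing cells cannot be told apart from less RNA per cell. Gene lengths were not used, and levels are therefore not compared between genes. The 2 polysome pools of a stage were less alike at the 8-cell and morula stages (Pearson's r of log2 values 0.822 and 0.868) than at the other 4 (0.940 to 0.972), and transcriptomes of a stage correlated at 0.957 to 0.993. The 8 oocyte markers summed to 9522 to 69216 CPM up to the 2-cell stage and to 34.2 to 313 CPM in morulae and blastocysts. The 7 blastocyst lineage markers summed to 5063 to 16811 CPM in blastocysts, mostly KRT18 and KRT8 (9498 and 7148 CPM in blastocyst pool A). In morulae they summed to 1947 to 4816 CPM in pools. Morula transcriptomes held 145 to 350 CPM, near the 254 to 293 CPM of 8-cell transcriptomes. NANOG fell instead, from 126, 220 and 205 CPM in 8-cell to 11.8, 46.4 and 31 CPM in blastocyst transcriptomes. The 12 cumulus and granulosa markers summed to 1266 to 8456 CPM in the 8-cell transcriptomes against 29.0 to 658 CPM in the other transcriptomes and 252 to 421 CPM in the 8-cell pools. Most of the sum in 8-cell transcriptomes was LUM (8106, 1690 and 1081 CPM in transcriptomes A, B and C). GV, MII and 2-cell pools held 924 to 962, 626 to 1230 and 770 to 1062 CPM, mostly STAR (916 and 882 CPM in GV pools). TNFAIP6 was at 82, 147 and 144 CPM in MII transcriptomes, against 0 to 0.16 CPM in GV and 2-cell transcriptomes. The part of these markers in any result, at the 8-cell or another stage, was not tested. The spans of 21 of the 81 repair genes overlap a neighbouring protein-coding gene in the RefSeq annotation, and the libraries do not mark strand, so reads of such pairs may be shared. Beside the genes for which an overlap is stated below, these include ERCC1, FANCA, FANCI, MSH5, PARP14, RAD51B, RAD51C, RAD54B, RAD54L and RAD54L2.

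Of the 81 genes, 80 passed the filter on low counts. FANCD2OS, next to FANCD2, reached at most 2.13 CPM in any library and was not tested. The edgeR quasi-likelihood test was run on all 14612 genes, with Benjamini-Hochberg adjustment, and a gene was called changed at an adjusted p below 0.05 and a fold above 2. Log2 values are folds from this model, each with its standard error (SE). Where all libraries of a group are at 0, a lower bound is given instead, computed against 3 counts per library.

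In transcriptomes, 32 of the 80 genes (40%) had their highest mean in MII oocytes, against 16.2% of all genes. In polysome pools, 31 (38.8%) had their highest mean in GV oocytes, against 14.7% of all genes. From GV to MII, 9 repair genes rose in the transcriptome and 12 fell, where 17.1% of all genes were called (6.61% higher, 10.5% lower). From MII to 2-cell, 6 rose and 5 fell (all genes 12%, with 6% higher and 5.96% lower). From 2-cell to 8-cell 13 rose and 24 fell (all genes 50.1%, with 26.6% higher and 23.5% lower). From 8-cell to morula 6 rose and 3 fell (14.4%, with 6.60% higher and 7.75% lower). From morula to blastocyst 6 rose and 18 fell (21.6%, with 10.2% higher and 11.4% lower). The transition with the most calls was therefore that from 2-cell to 8-cell, as it was for all genes, and the share of repair genes called there, 46.3%, was not above the background. Without MII transcriptome C, 13 calls were left from GV to MII and 6 from MII to 2-cell, and without 2-cell transcriptome C 7 were left in the latter.

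**Figure D1:**
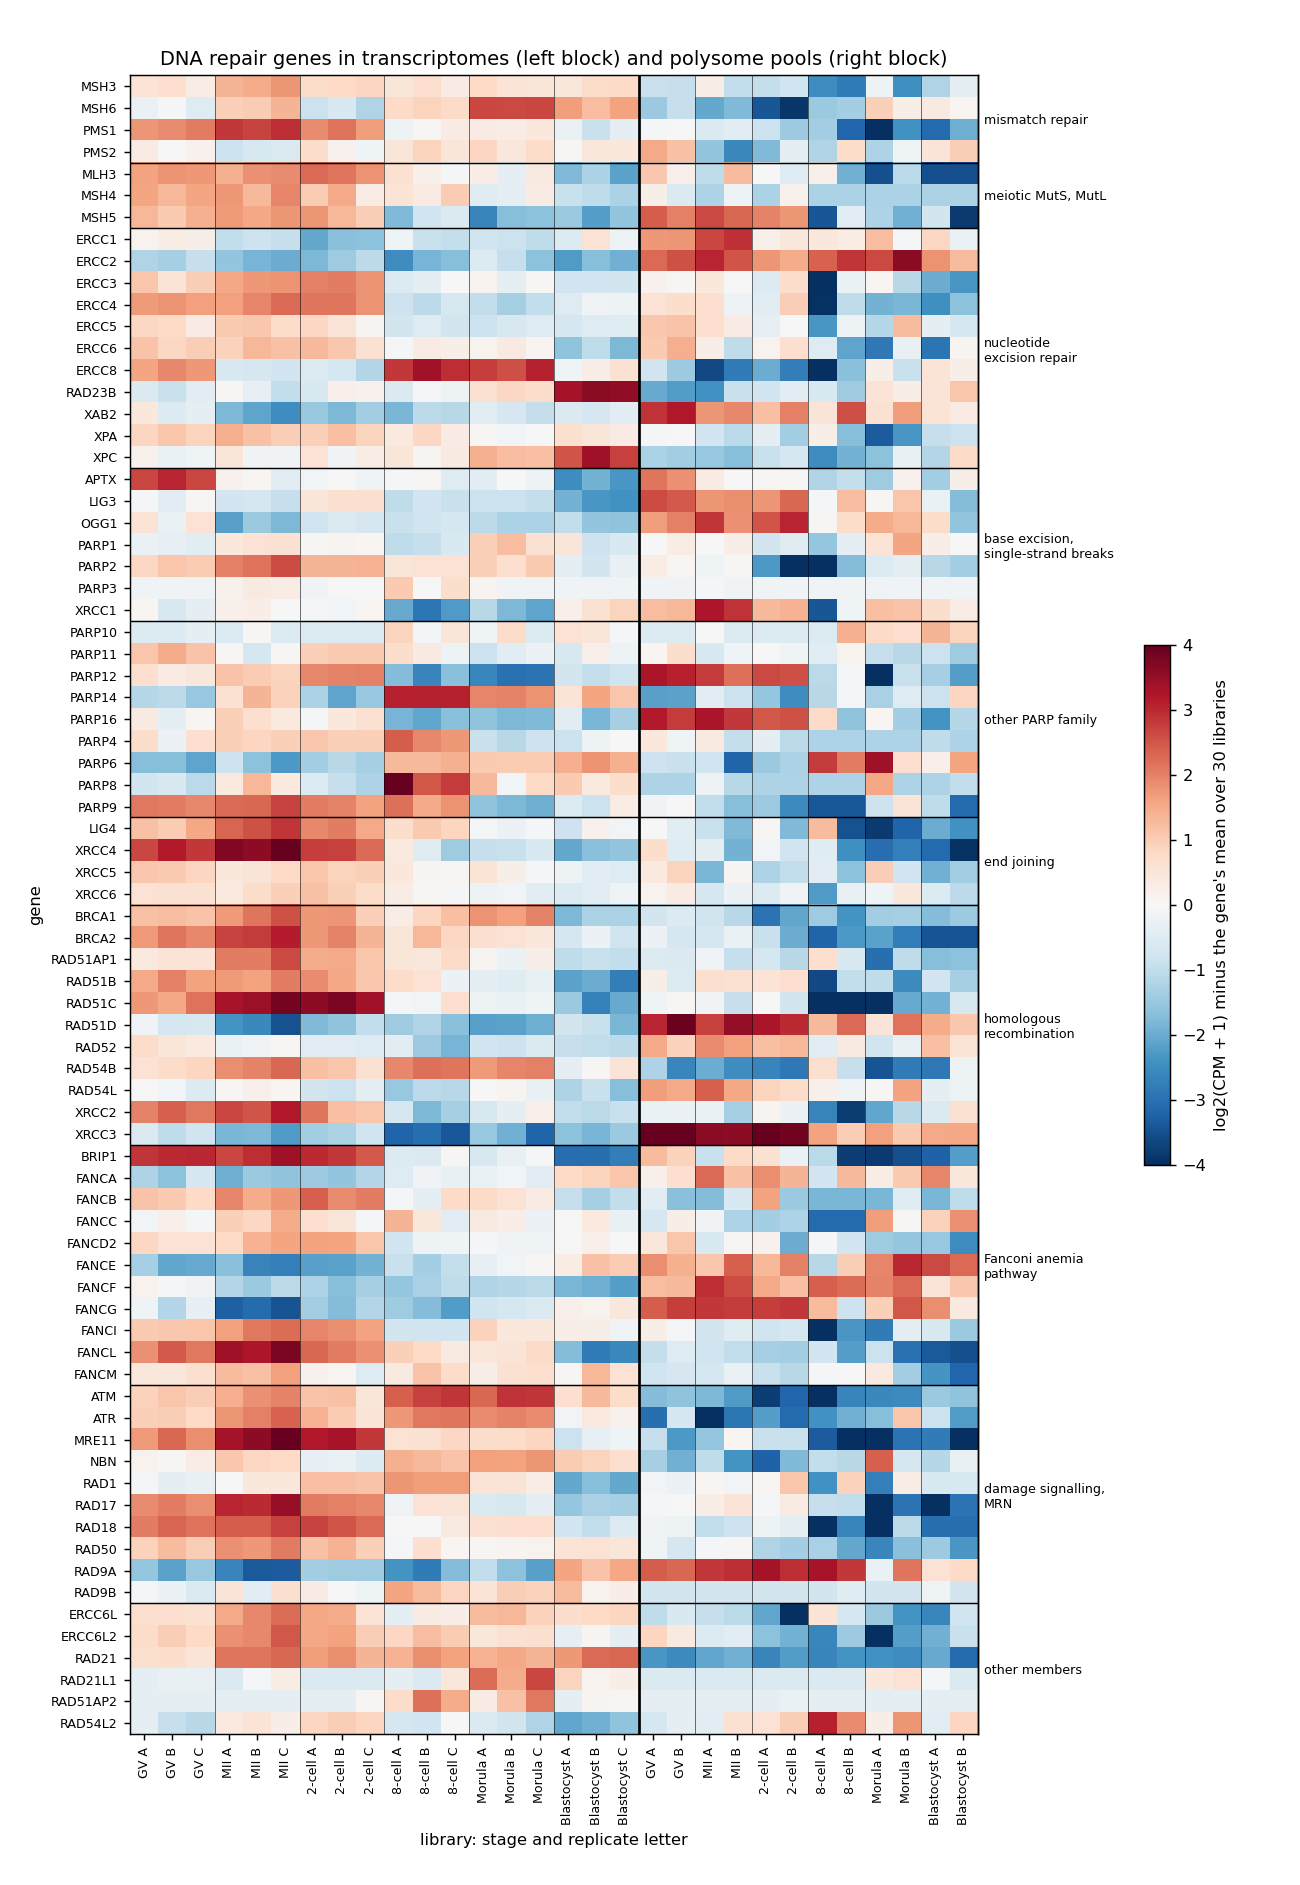
Heat map of 76 tested repair genes (rows, by pathway) in 18 transcriptomes and 12 polysome pools (columns, by stage and replicate letter). Colour is log2(CPM + 1) minus the gene's mean over the 30 libraries, from blue (lower) to red (higher), and it shows rows that are red on one side and blue on the other, such as XRCC3 and MRE11, beside rows that change with stage on both sides, such as MSH6.

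The same test in polysome pools called 3 repair genes higher and 4 lower from GV to MII (all genes 5.37%, with 3.03% higher and 2.33% lower). From MII to 2-cell it called 1 higher and 6 lower (8.51%, with 3.37% higher and 5.14% lower). Scaling by DESeq2's size factors in place of TMM turned the latter into 0 higher and 8 lower. From 2-cell to 8-cell, 8 rose and 28 fell (46.3%, with 21.0% higher and 25.2% lower). From 8-cell to morula 19 rose and 11 fell (36.2%, with 18.5% higher and 17.7% lower). From morula to blastocyst 4 rose and 9 fell (13.9%, with 5.79% higher and 8.13% lower). Falls thus outnumbered rises into the 8-cell stage, and the reverse held out of it. Both transitions use the same 8-cell pools, so a gene low in these pools tends to fall before and rise after. The counts are therefore not separate evidence of a turn. Among the rises to the morula were FANCB, FANCC, PARP8, PARP9 and RAD21L1, all at 0 in both 8-cell pools. Single pools mattered at all 5 transitions, including both that use the 8-cell pools, where the number of calls moved when 1 of these pools was left out. From MII to 2-cell, 3 were left without 2-cell pool B. From morula to blastocyst there were 22 without morula pool B and 7 without blastocyst pool B.

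Within each stage, more repair genes were lower than higher in polysome pools relative to the transcriptome. At the GV stage 17 were higher and 28 lower, where 38.6% of all genes were called. The MII stage had 19 higher and 43 lower (56.6%), the 2-cell stage 17 and 40 (49.8%) and the 8-cell stage 19 and 38 (57.7%). Morulae had 17 higher and 32 lower (50.4%) and blastocysts 11 and 25 (38.9%). Among all genes the share called lower ran from 17.0% in GV oocytes to 30.3% in 8-cell embryos, while among repair genes it ran from 31.3% in blastocysts to 53.8% in MII oocytes. The median log2 difference of the 80 genes was -0.97, -1.82, -1.64, -1.14, -1.41 and -0.82 from GV to blastocyst, against 0.00, 0.00, 0.18, -0.26, 0.00 and -0.08 over all genes. With the genes at 0 placed at their bounds, these medians were -0.89, -1.82, -1.57, -1.14, -1.27 and -0.77. Without GV pool B, 27 of the 45 calls in GV oocytes were left.

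The lighter fractions were set against the transcriptome in the same way. With pools of F3 to F5, the monosome fractions, set against the transcriptome in place of F8 to F10, 57, 61, 50, 62, 56 and 39 repair genes were called from GV to blastocyst, where 51.7%, 58.7%, 47.5%, 70.5%, 57.8% and 41.7% of all genes were. Of these repair genes 37, 38, 32, 43, 40 and 31 were lower, where 20.4%, 24.5%, 17.5%, 36.2%, 28.7% and 24.4% of all genes were called lower. With F1 and F2, the free RNA, 54, 62, 51, 57, 51 and 22 were called (all genes 54.3%, 58.0%, 43.9%, 63.8%, 47.1% and 25.2%). Of these 39, 45, 36, 38, 35 and 19 were lower (all genes 24.3%, 26.7% and 19.1% up to the 2-cell stage, 5061 of 14451 genes at the 8-cell stage, then 25.1% and 15.8%). These alternatives were added after the data were seen. The F3 to F5 pools shared 43, 55, 47, 49, 40 and 26 called genes with the polysome pools from GV to blastocyst, and their median log2 differences were -1.32, -1.43, -0.93, -1.73, -1.66 and -1.18, against 0.42, 0.54, 0.66, -0.10, -0.02 and -0.43 over all genes. A lower or higher level in polysome pools than in the transcriptome is therefore not by itself a measure of a shift between fractions.

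Some genes lay on one side throughout. Of the 80, 8 were called higher in polysome pools at all 6 stages (10.0%, all genes 9.42%), among them ERCC2, FANCE, FANCF, LIG3, OGG1, RAD51D and XRCC3. Of these, ERCC2, FANCF, OGG1 and XRCC3 are among the genes that overlap a neighbour. Called lower at all 6 stages were 10 (12.5%, all genes 5.22%): ATM, BRCA2, FANCL, MRE11, MSH3, PMS1, RAD17, RAD18, RAD21 and RAD50, of which FANCL and RAD50 overlap a neighbour. With 1 library left out, a call at 1 or more stages ended for FANCE, LIG3 and OGG1 among the higher genes named and for ATM, FANCL, MSH3, PMS1 and RAD17 among the lower ones. In blastocysts the OGG1 difference ran from log2 -0.26, without pool A, to 2.33. PARP9 was called in both directions at different stages, and 8 genes were called at none.

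**Figure D2:**
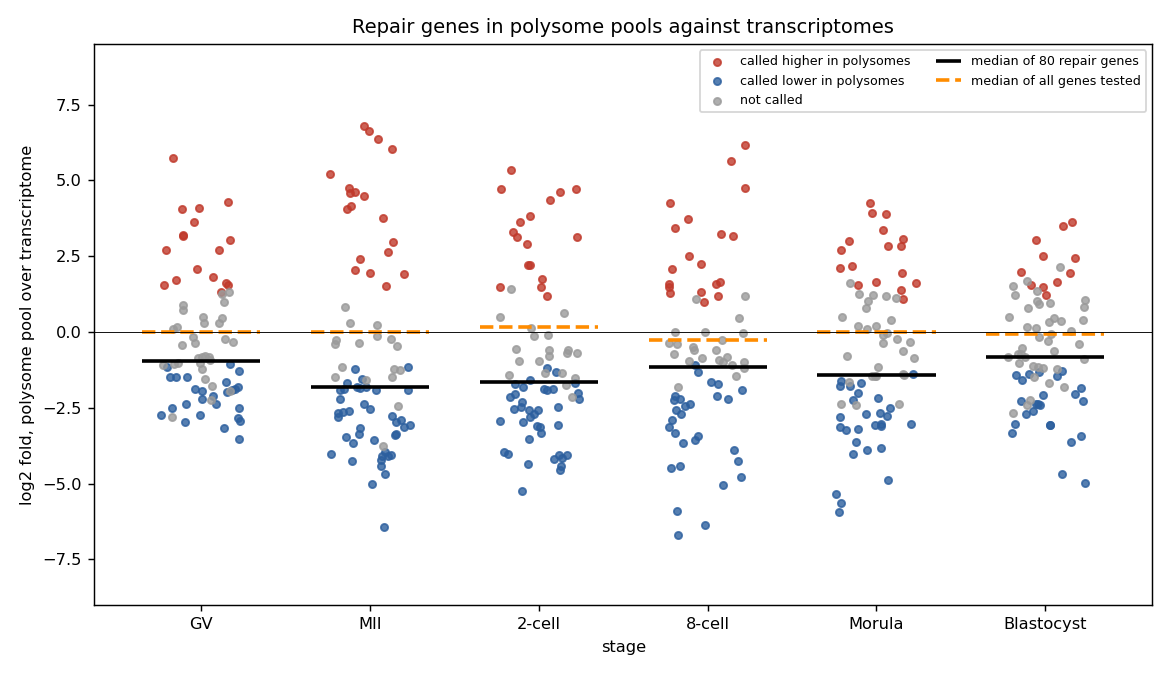
Log2 fold of each repair gene in polysome pools over transcriptomes (y axis) at the 6 stages (x axis). Points are genes, red where called higher, blue where called lower and grey where not called, black bars are the median of 80 repair genes and dashed bars that of all genes tested, and the genes with a group at 0 (6, 3, 5, 9, 5 and 4 from GV to blastocyst) are left out of the points. The black bar lies below the dashed bar at every stage.

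Of the 6 mismatch repair genes, 0 or 1 was higher and 2 to 5 were lower in pools than in transcriptomes, depending on the stage. Among all genes 19.4% to 30.4% were called higher and 17.0% to 30.3% lower. MSH6, which helps to recognise single mismatched bases, was called in the transcriptome at all 5 transitions, and rose in both kinds of library at the transitions into the 8-cell and morula stages. Its transcriptome level was 74.3, 85.3 and 61.3 CPM in GV and 174, 179.7 and 228 CPM in MII oocytes (log2 1.40, SE 0.25, adjusted p = 1.83e-04), and 48.5, 57.8 and 38.2 CPM in 2-cell embryos (log2 -2.01, SE 0.25, adjusted p = 8.59e-06). It rose to 152, 165 and 151 CPM at the 8-cell stage (log2 1.69, SE 0.25, adjusted p = 5.07e-06). It reached 569.8, 554 and 573 CPM in morulae (log2 1.86, SE 0.25, adjusted p = 1.85e-05), and fell to 284, 209.8 and 273 CPM in blastocysts (log2 -1.15, SE 0.24, adjusted p = 0.00126). No 2 of these neighbouring groups overlapped. Pools held 31.1 and 46.4 CPM at GV, 20.9 and 25.4 at MII, 7.28 and 4.98 in 2-cell, 31.1 and 34.2 in 8-cell, 173 and 105 in morula and 115 and 93.4 CPM in blastocyst. The pool values fell from MII to 2-cell (log2 -1.91, SE 0.31, adjusted p = 4.50e-04), rose to the 8-cell stage (log2 2.41, SE 0.31, adjusted p = 1.74e-06) and rose again to the morula (log2 2.09, SE 0.31, adjusted p = 2.18e-05). MSH6 overlaps FBXO11 in the annotation.

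**Figure D3:**
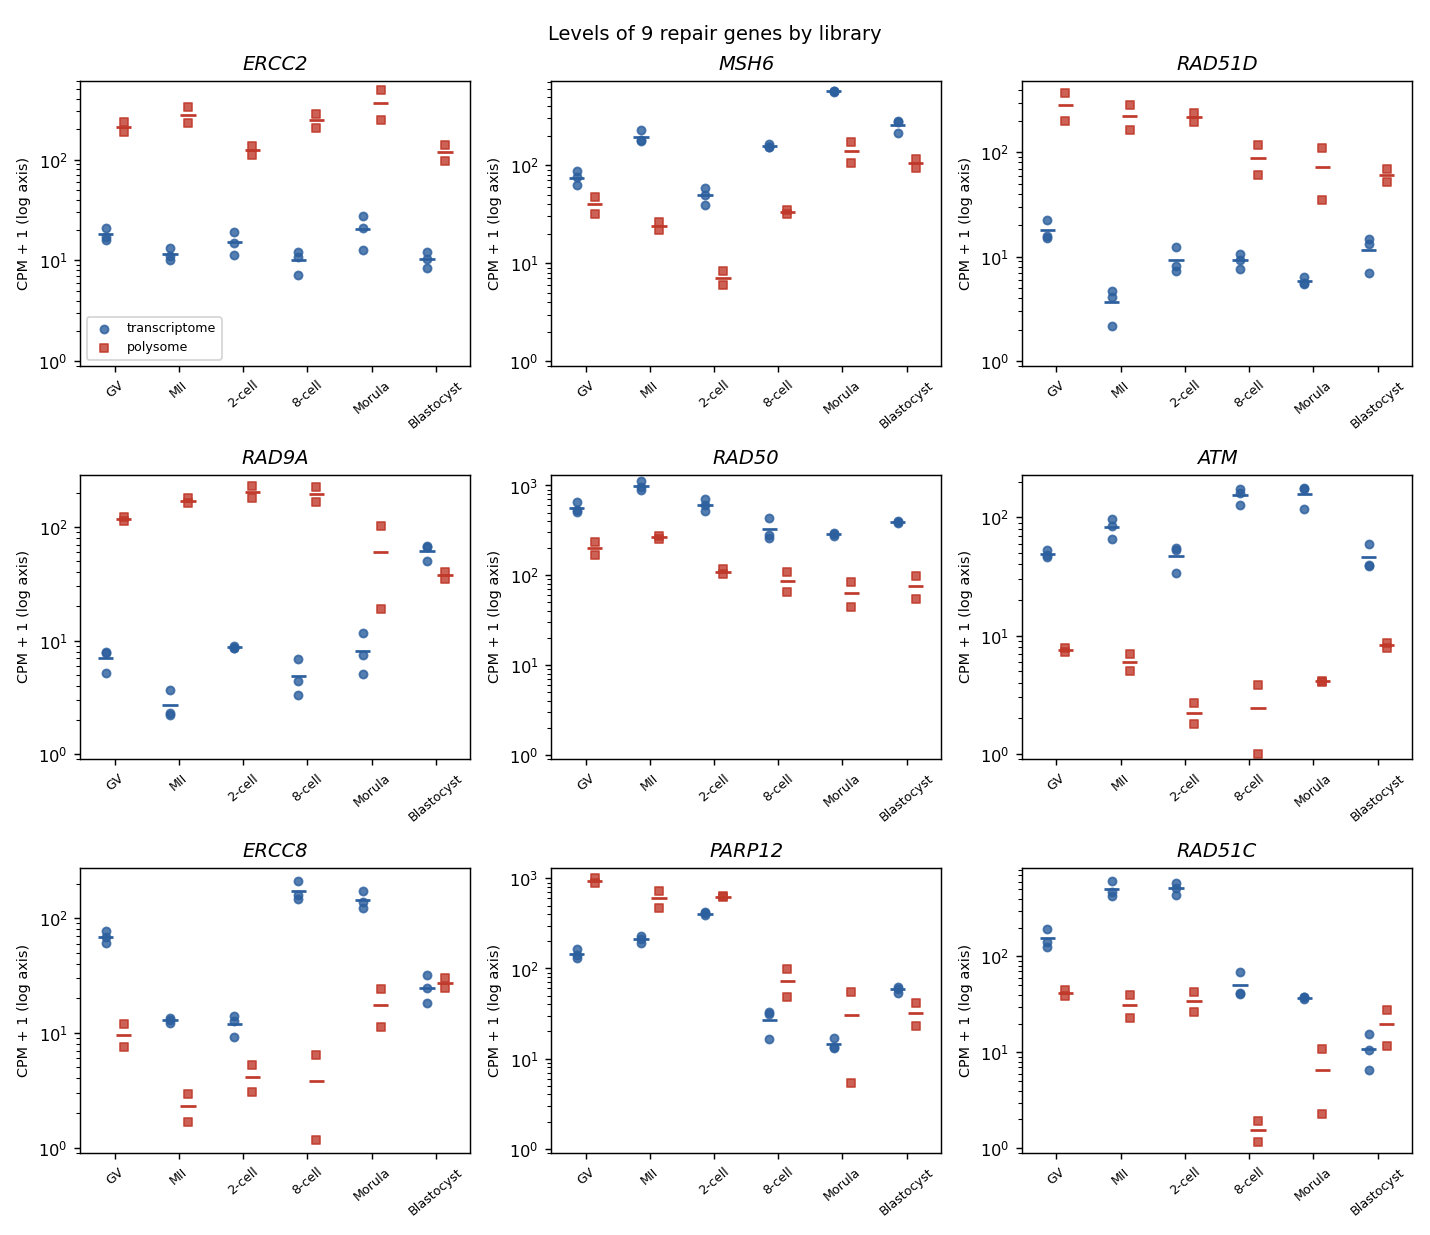
CPM + 1 on a log axis of 9 repair genes in each transcriptome (circles, 3 per stage) and polysome pool (squares, 2 per stage), with bars at the mean. ERCC2 lies between 95.3 and 486 CPM in pools while its transcriptome values lie between 6.17 and 26.3 CPM. RAD51D lies higher in pools at all 6 stages and RAD9A up to the morula stage, while RAD50 and ATM lie lower in pools at all 6 stages.

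PMS2, which helps to nick the strand that carries the error, fell in pools from 25.2 and 19.8 CPM in GV to 2.09 and 0.536 CPM in MII oocytes (log2 -4.09, SE 0.80, adjusted p = 0.00335). Its transcriptome values of 10.4, 8.31 and 9.32 CPM in GV and 4.01, 4.87 and 5.12 CPM in MII oocytes gave no call (log2 -1.0, SE 0.59, adjusted p = 0.269). MSH3 and PMS1 were lower in pools at all 6 stages, by log2 differences from -3.43 to -1.46 for MSH3 and from -3.62 to -1.96 for PMS1. Of the genes of meiotic crossing over, MSH5 fell in pools from 55.5 and 47.4 CPM at the 2-cell to 0.328 and 9.41 CPM at the 8-cell stage (log2 -3.39, SE 1.17, adjusted p = 0.0211). MSH4 was at 0 in both 8-cell and both morula pools. The pools were at least 27.9-fold below the 8-cell transcriptomes and 10.7-fold below the morula transcriptomes. Its 2-cell pools held 0 and 1.75 CPM, so the fall to the 8-cell pools rests on 2-cell pool B. MLH3 was at 0 in both blastocyst pools, at least 19.8-fold below the blastocyst transcriptomes (2.35, 3.73 and 1.6 CPM). Its morula pools held 0 and 4.43 CPM, so the fall between them rests on morula pool B. With 1 library left out in turn, the call ended for MSH3 between pools and transcriptomes at the blastocyst stage (1 of 5 fits, without blastocyst pool A, log2 -1.96 to -1.10) and MSH5 in pools from 2-cell to 8-cell (2 of 4 fits, without 2-cell pool A or 8-cell pool A, log2 -7.26 to -2.45).

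**Figure D4:**
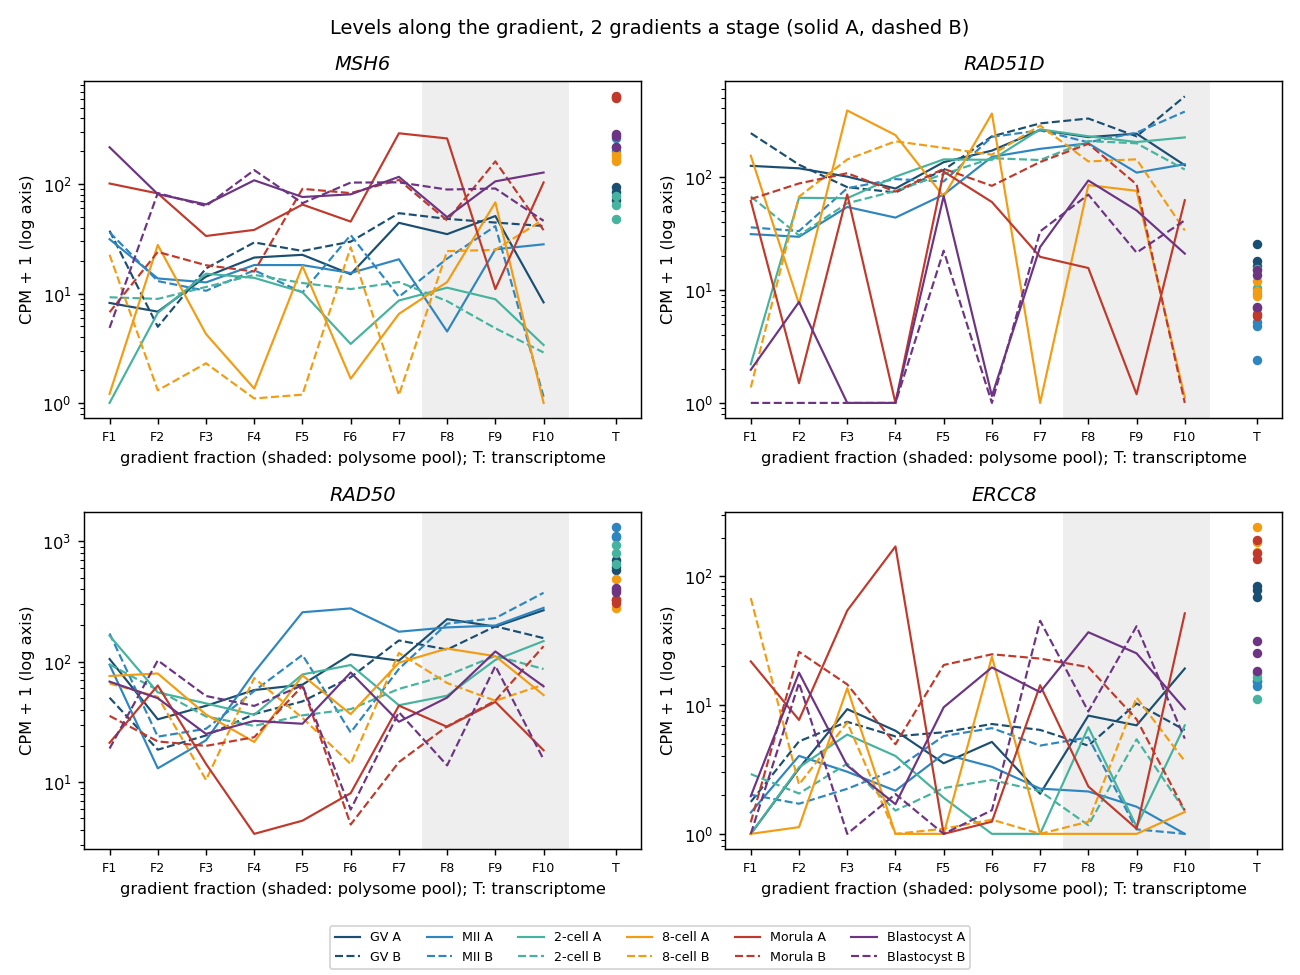
CPM + 1 on a log axis (y) of MSH6, RAD51D, RAD50 and ERCC8 in fractions F1 to F10 (x) of gradients A (solid) and B (dashed) at 6 stages (colours), with transcriptomes as points at T and F8 to F10 shaded. RAD50 lies below its transcriptome values in every fraction of every stage.

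The polysome fractions were also compared with the monosome fractions of the same gradients. Heavy and light pools of a gradient share their lysate, and the fit did not use this pairing. In this test of heavy (F8 to F10) against light (F3 to F5) pools, in a model of 24 pools and 14873 genes, 0 repair genes were called in GV, MII and 2-cell gradients by edgeR, where all genes gave 0.498%, 0.437% and 0.00%. At an unadjusted p below 0.05, 9, 9 and 5 repair genes passed at these stages, DESeq2 called 2, 4 and 0, and edgeR's likelihood ratio test 0, 2 and 0. In 8-cell embryos 5 were higher in heavy fractions and 3 lower (all genes 9.35%). The higher ones were ATR, at 2.5 and 3.86 CPM in heavy pools and at 0 in both light pools, ERCC6L (log2 5.40, SE 1.44, adjusted p = 0.0277), FANCD2 (log2 4.66, SE 0.90, adjusted p = 0.00798), MSH6 (log2 3.12, SE 0.79, adjusted p = 0.0229) and FANCM (log2 2.67, SE 0.79, adjusted p = 0.0418). OGG1 was among the lower ones (log2 -2.86, SE 0.73, adjusted p = 0.024). Light pools held 6.25 and 0.51 CPM of MSH6 and heavy pools 28.3 and 30.4 CPM. Light pools held 0.667 and 2.42 CPM of FANCD2 and heavy pools 49.6 and 28.7 CPM. With the gradient as a block 7 were called, and the adjusted p was 0.0738 for ATR, 0.0926 for FANCM and 0.0509 for OGG1. The ATR call also ended without either gradient. Without 8-cell gradient A only 2 calls were left. In morulae 2 were lower (all genes 1.59%), among them RAD52 (log2 -2.11, SE 0.49, adjusted p = 0.0415), and there were 0 without gradient A and 10 without gradient B. The block left 1 call there and gave an adjusted p of 0.091 for RAD52. In blastocysts FANCF alone was called (all genes 1.43%), at 36 and 54.4 CPM in heavy and 0.453 and 0.529 CPM in light pools (log2 6.51, SE 0.67, adjusted p = 7.17e-05). Leaving out 1 library in turn ended the call for FANCD2 between heavy and light pools at the 8-cell stage (1 of 2 fits, without 8-cell gradient A, log2 3.56 to 6.21) and MSH6 between heavy and light pools at the 8-cell stage (1 of 2 fits, without 8-cell gradient B, log2 2.18 to 5.89). It also ended for FANCM between heavy and light pools at the 8-cell stage (both fits, log2 2.37 to 3.04) and OGG1 between heavy and light pools at the 8-cell stage (both fits, log2 -3.01 to -2.75). A further loss was that of RAD52 between heavy and light pools at the morula stage (1 of 2 fits, without morula gradient A, log2 -2.35 to -1.94).

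Of the 12 nucleotide excision repair genes, 4 were higher in pools than in transcriptomes at each stage from GV to morula and 2 in blastocysts, where 21.6% to 30.4% of all genes were called higher up to the morula and 19.4% in blastocysts. From 2 to 5 were lower, where 17.0% to 30.3% of all genes were. ERCC8, part of the ubiquitin ligase that acts where RNA polymerase has stalled at a lesion, fell in transcriptomes from 60.1, 76.7 and 67.2 CPM in GV to 12.4, 12 and 11.2 CPM in MII oocytes (log2 -2.52, SE 0.62, adjusted p = 0.00498). GV pools were lower than GV transcriptomes (log2 -2.97, SE 0.74, adjusted p = 0.00248). Pools fell as well, from 10.9 and 6.46 to 0.684 and 1.93 CPM (log2 -2.72, SE 0.78, adjusted p = 0.0398). After 12.9, 11.7 and 8.2 CPM in 2-cell embryos the transcriptome rose to 145, 210.1 and 157 CPM at the 8-cell stage (log2 3.97, SE 0.66, adjusted p = 2.63e-05), with all 8-cell values far above all 2-cell values. The 8-cell pools stayed at 0.164 and 5.45 CPM beside 4.2 and 2.03 CPM at the 2-cell stage, so the level in 8-cell pools was lower than in 8-cell transcriptomes by log2 -5.91 (SE 0.87). The lighter 8-cell fractions were low as well. The mean of ERCC8 was 17.1 CPM in F1 and F2, 3.15 CPM in F3 to F5 and 5.76 CPM in F6 and F7. Morula pools then held 23.1 and 10.2 CPM (log2 2.55, SE 0.76, adjusted p = 0.0118). In blastocysts the transcriptome fell to 17.1, 23.8 and 30.6 CPM (log2 -2.59, SE 0.62, adjusted p = 0.00353), where pools held 29.2 and 23.4 CPM, and the difference from it was not called (log2 0.14, SE 0.66, adjusted p = 0.901). The call ended when single libraries were left out for ERCC8 between pools and transcriptomes at the GV stage (1 of 5 fits, without GV pool B, log2 -3.39 to -2.64) and ERCC8 in pools from GV to MII (all 4 fits, log2 -3.64 to -2.18). It ended likewise for ERCC8 in pools from 8-cell to morula (1 of 4 fits, without morula pool A, log2 1.60 to 6.60).

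ERCC2, ERCC1 and XAB2 lay on the other side. ERCC2, a helicase of the transcription factor TFIIH that opens DNA around a lesion, was at 189 and 233 CPM in GV pools against 16.1, 15 and 20.2 CPM in GV transcriptomes (log2 3.63, SE 0.37, adjusted p = 4.90e-08). At the 8-cell stage it was at 204 and 285 against 6.17, 9.86 and 11.2 CPM (log2 4.75, SE 0.39, adjusted p = 8.71e-10). Morulae held 246 and 486 against 26.3, 20.03 and 11.7 CPM (log2 4.24, SE 0.38, adjusted p = 7.74e-09), and blastocysts held 138 and 95.3 against 7.35, 11.2 and 9.4 CPM (log2 3.64, SE 0.38, adjusted p = 9.25e-08). ERCC2 overlaps KLC3. ERCC1, which with ERCC4 makes the cut on the 5′ side of the lesion, was higher in pools at every stage but the blastocyst, most of all in MII oocytes (log2 3.76, SE 0.40, adjusted p = 2.07e-08). It fell in pools from 286 and 338 CPM in MII to 51.2 and 61.1 CPM in 2-cell embryos (log2 -2.47, SE 0.44, adjusted p = 0.00103). XAB2, a factor that binds XPA, had log2 differences of 3.18, 4.06, 3.30, 3.23 and 1.94 from GV to morula. In GV gradients its light pools held 1700 and 1827 CPM and its heavy pools 369 and 454 CPM, without a call. In morulae its light pools held 9.54 and 114.5 CPM and its heavy pools 81.2 and 149 CPM.

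XPC, the damage sensor, fell in pools from 2.08 and 2.52 CPM at the 2-cell to 0 and 0.542 CPM at the 8-cell stage (log2 -2.99, SE 0.96, adjusted p = 0.0134) and rose to 0.819 and 3.65 CPM in morulae (log2 2.96, SE 0.96, adjusted p = 0.0184). Its transcriptome was called at no transition, and held 14.3, 12.3 and 12.2 CPM in morulae and 31.8, 58.2 and 36.8 CPM in blastocysts, a step that was not called (log2 1.71, SE 0.73, adjusted p = 0.0931). It was lower in pools than in transcriptomes of the blastocyst (log2 -3.06, SE 0.90, adjusted p = 0.00908). RAD23B, a partner of XPC, had 42.2, 49.9 and 45.5 CPM in morulae and 286, 346 and 334 CPM in blastocysts (log2 2.81, SE 0.40, adjusted p = 1.43e-05), a 7.02-fold rise without overlap. Blastocyst pools held 39.5 and 60.4 CPM after 40.4 and 33.3 CPM, without a call (log2 0.44, SE 0.45, adjusted p = 0.599). XPA, which verifies the lesion, fell in pools from 34.3 and 8.35 CPM at the 8-cell stage to 1.98 and 5.06 CPM in morulae (log2 -2.59, SE 0.52, adjusted p = 5.52e-04). It held 15 and 15.7 CPM in blastocysts (log2 2.12, SE 0.51, adjusted p = 0.00828), while its transcriptome gave no call at either step. ERCC4 fell in transcriptomes from 141, 141 and 112 CPM in 2-cell to 17.2, 14.8 and 19.6 CPM in 8-cell embryos (log2 -2.94, SE 0.55, adjusted p = 1.05e-04). In fits without 1 library, the call ended for XPC in pools from 2-cell to 8-cell (1 of 4 fits, without 8-cell pool A, log2 -8.33 to -2.07) and XPC in pools from 8-cell to morula (2 of 4 fits, without 8-cell pool A or morula pool B, log2 1.51 to 8.30). The same held for XPC between pools and transcriptomes at the blastocyst stage (1 of 5 fits, without blastocyst pool A, log2 -4.79 to -2.31) and XPA in pools from morula to blastocyst (1 of 4 fits, without morula pool A, log2 1.62 to 2.96).

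In base excision and single-strand break repair, APTX, which clears failed ligation products from DNA ends, was highest in GV oocytes. It fell in transcriptomes from 222, 289 and 222 to 38, 35.6 and 25.1 CPM at MII (log2 -2.89, SE 0.40, adjusted p = 1.03e-05) and in pools from 151 and 122 to 42.3 and 34.3 CPM (log2 -1.83, SE 0.48, adjusted p = 0.0232). OGG1, the glycosylase for oxidised guanine, fell in the transcriptome from 20.5, 11.3 and 21.1 to 2.29, 4.26 and 3.21 CPM (log2 -2.43, SE 0.50, adjusted p = 8.62e-04). Pools held 45.4 and 58.9 CPM in GV and 105 and 51.1 CPM in MII oocytes without a call (log2 0.58, SE 0.56, adjusted p = 0.684). The level in pools was 23.9-fold that of the transcriptome in MII oocytes (log2 4.58, SE 0.56, adjusted p = 2.06e-07). OGG1 overlaps CAMK1. LIG3, the ligase of this pathway, was higher in pools than in transcriptomes at every stage, at 279.7 and 252 against 43.8, 32.5 and 47.2 CPM in GV oocytes (log2 2.69, SE 0.39, adjusted p = 6.59e-06). Light pools (F3 to F5) held more LIG3 than heavy pools in GV (397 and 529 against 258 and 232 CPM) and MII oocytes (722 and 723 against 139 and 149.5 CPM), without a call. In morulae LIG3 was at 46.9 and 36.3 CPM in light and 47.1 and 86.1 CPM in heavy pools. It rose in the transcriptome from 26.4, 28.2 and 23.7 CPM in MII to 63.5, 70.6 and 71.8 CPM in 2-cell embryos (log2 1.39, SE 0.36, adjusted p = 0.00982). It fell to the 8-cell stage in both kinds of library (log2 -1.51, SE 0.36, adjusted p = 0.00121 in transcriptomes, log2 -1.33, SE 0.43, adjusted p = 0.0152 in pools). XRCC1, its scaffold, fell to 3.77, 1.61 and 3.04 CPM in 8-cell transcriptomes from 17.2, 16.9 and 19.3 CPM (log2 -2.66, SE 0.60, adjusted p = 7.35e-04). It rose from 7.93, 4.56 and 3.45 to 21.5, 28.4 and 34.6 CPM between morula and blastocyst (log2 2.40, SE 0.59, adjusted p = 0.00405). PARP1, which binds strand breaks and marks them with poly(ADP-ribose), rose from 79.3, 84.1 and 105 CPM in 8-cell to 313, 373 and 245 CPM in morula transcriptomes (log2 1.80, SE 0.33, adjusted p = 5.64e-04). Pools rose from 53.4 and 124 to 234 and 482 CPM (log2 2.01, SE 0.40, adjusted p = 5.66e-04). It was not called between pools and transcriptome at any stage. PARP2 fell in pools from 38.5 and 44.9 CPM in MII to 8.01 and 1.63 CPM in 2-cell embryos (log2 -3.11, SE 0.96, adjusted p = 0.0438), where transcriptomes held 114, 112 and 116 CPM (log2 -4.56, SE 1.0, adjusted p = 5.35e-04). Calls that ended with 1 library left out were those for APTX in pools from GV to MII (all 4 fits, log2 -2.01 to -1.67) and LIG3 in transcriptomes from MII to 2-cell (1 of 6 fits, without MII transcriptome C, log2 1.31 to 1.45). It also ended for LIG3 in pools from 2-cell to 8-cell (2 of 4 fits, without 2-cell pool B or 8-cell pool A, log2 -2.12 to -0.82) and PARP2 in pools from MII to 2-cell (all 4 fits, log2 -4.68 to -2.38).

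The other 9 PARP family genes are best known for roles outside strand break repair. PARP14, PARP9 and PARP12 are known as interferon-responsive genes. PARP14 rose in transcriptomes from 1.52, 0.4 and 1.13 CPM in 2-cell to 50.9, 50.5 and 49.8 CPM in 8-cell embryos (log2 5.62, SE 0.79, adjusted p = 2.71e-06). This came after a rise from GV to MII (log2 2.77, SE 0.70, adjusted p = 0.00583) and a fall to the 2-cell stage (log2 -3.42, SE 0.72, adjusted p = 0.0019). Pools rose from GV to MII (log2 2.97, SE 0.86, adjusted p = 0.0423) and from 1.08 and 0.0923 to 1.8 and 4.91 CPM at the 8-cell stage (log2 2.49, SE 0.84, adjusted p = 0.018). PARP12 went the other way, from 391, 408 and 418 to 30.2, 15.5 and 31.8 CPM (log2 -3.97, SE 0.53, adjusted p = 1.46e-06). In pools it fell from 639.8 and 618 to 47.8 and 97.3 CPM (log2 -3.11, SE 0.63, adjusted p = 3.25e-04). It rose in blastocysts to 62, 52.7 and 58.2 CPM (log2 2.09, SE 0.50, adjusted p = 0.00339). PARP6 rose in both, from 2.74, 3.36 and 2.78 to 22.3, 22.6 and 24.5 CPM (log2 2.96, SE 0.83, adjusted p = 0.00485) and from 2.39 and 2.98 to 65.7 and 39.1 CPM (log2 4.28, SE 1.07, adjusted p = 0.0024). PARP16, an enzyme of the endoplasmic reticulum membrane, fell in both (log2 -2.44, SE 0.54, adjusted p = 6.14e-04 in transcriptomes, log2 -2.57, SE 0.65, adjusted p = 0.00265 in pools). With 1 library left out in turn, the call ended for PARP14 in pools from GV to MII (all 4 fits, log2 2.65 to 3.22) and PARP14 in pools from 2-cell to 8-cell (2 of 4 fits, without 2-cell pool B or 8-cell pool B, log2 1.60 to 5.09).

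PARP8, PARP9 and PARP4 were present in 8-cell transcriptomes and at 0 in both 8-cell pools. In the light 8-cell pools (F3 to F5) PARP8 and PARP9 were also at 0 and PARP4 was at 0 and 1.95 CPM. The low levels were thus not confined to the polysome fractions. PARP8 had risen from 0.609, 0.24 and 0 CPM in 2-cell to 41, 12 and 15.3 CPM in 8-cell transcriptomes (log2 6.30, SE 1.59, adjusted p = 0.00246) and was at least 223-fold lower in 8-cell pools. PARP9 was at 47, 28.9 and 35.4 CPM and at least 363-fold lower in pools, and PARP4 was at 11.6, 7.89 and 6.79 CPM and at least 85.6-fold lower. In morulae PARP9 fell to 2.43, 2.06 and 1.72 CPM in transcriptomes (log2 -4.16, SE 0.72, adjusted p = 3.49e-04), while its pools held 4.96 and 13.9 CPM, at least 92.4-fold above the 8-cell pools, and were higher than the transcriptome (log2 2.19, SE 0.71, adjusted p = 0.0134). Blastocyst transcriptomes held 6.17, 4.77 and 12 CPM (log2 1.89, SE 0.67, adjusted p = 0.0454). PARP4 fell in transcriptomes to 0.28, 0.0894 and 0.323 CPM (log2 -5.22, SE 1.11, adjusted p = 0.00242). PARP8 was at 5.74 and 0 CPM in morula pools, so its rise there rests on morula pool A. PARP8 was also at 0 in all GV and 2-cell pools, at least 4.23- and 3.22-fold below the transcriptomes, and lower in blastocyst pools (log2 -4.97, SE 1.85, adjusted p = 0.037). Relative to 2-cell pools, the 8-cell pools were at least 17.9-fold lower for PARP9 and 4.68-fold lower for PARP4. PARP9 overlaps DTX3L and PARP4 overlaps CENPJ. PARP10 was at 0 in all 2-cell libraries and at 1.71, 0.358 and 1.04 CPM in 8-cell transcriptomes, at least 4.49-fold higher, and at 0 and 2.87 CPM in 8-cell pools, so that the rise in pools rests on 8-cell pool B. Leaving out 1 library in turn ended the call for PARP9 between pools and transcriptomes at the morula stage (1 of 5 fits, without morula pool B, log2 1.25 to 2.72) and PARP9 in transcriptomes from morula to blastocyst (5 of 6 fits, log2 1.41 to 2.15). A further loss was that of PARP8 between pools and transcriptomes at the blastocyst stage (4 of 5 fits, log2 -8.72 to -4.05) and PARP8 between pools and transcriptomes at the GV stage (4 of 5 fits). It ended likewise for PARP8 between pools and transcriptomes at the 2-cell stage (4 of 5 fits) and PARP10 in transcriptomes from 2-cell to 8-cell (3 of 6 fits).

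Among the 4 end joining genes, XRCC4, which holds the ligase LIG4 at the break, fell in transcriptomes from 110.1, 107 and 76.6 CPM at the 2-cell to 20.4, 10.7 and 5.13 CPM at the 8-cell stage (log2 -3.02, SE 0.64, adjusted p = 4.36e-04). It was lower in pools at 5 stages, most of all in MII oocytes, where pools held 11.4 and 3.43 and transcriptomes 209, 193 and 313 CPM (log2 -5.01, SE 0.84, adjusted p = 2.07e-05). LIG4 was at 69.95, 83 and 102 CPM in MII transcriptomes against 6.7 and 3.18 CPM in pools (log2 -4.10, SE 1.12, adjusted p = 0.0032). Its 8-cell pools, at 33.2 and 0.271 CPM, were far apart and its morula pools held 0 and 0.546 CPM, so the fall between them (log2 -5.78, SE 1.28, adjusted p = 0.00132) became log2 0.15 without 8-cell pool A. XRCC6 and XRCC5 encode the Ku proteins that bind broken ends. XRCC6 had transcriptome means between 39.6 and 102.2 CPM with no call at any transition, and XRCC5 between 23.8 and 63.9 CPM, likewise without a call. XRCC6 rose in pools from 9.93 and 42.4 CPM at the 8-cell stage to 45.7 and 69.5 CPM in morulae (log2 1.14, SE 0.44, adjusted p = 0.0431). It was lower in pools at the MII, 2-cell and 8-cell stages (log2 -1.17 (SE 0.41), -1.31 (SE 0.41) and -1.09 (SE 0.41)). XRCC5 fell in pools from 63.3 and 18.1 CPM in morulae to 7.61 and 11.4 CPM in blastocysts (log2 -2.10, SE 0.56, adjusted p = 0.0155). The call ended when single libraries were left out for LIG4 in pools from 8-cell to morula (1 of 4 fits, without 8-cell pool A, log2 -11.17 to 0.15) and XRCC6 in pools from 8-cell to morula (2 of 4 fits, without 8-cell pool A or morula pool B, log2 0.44 to 2.53). The same held for XRCC6 between pools and transcriptomes at the MII stage (1 of 5 fits, without MII pool A, log2 -1.44 to -1.01) and XRCC6 between pools and transcriptomes at the 2-cell stage (1 of 5 fits, without 2-cell pool A, log2 -1.55 to -1.12). It also ended for XRCC6 between pools and transcriptomes at the 8-cell stage (2 of 5 fits, without 8-cell pool A or 8-cell transcriptome A, log2 -2.49 to -0.40) and XRCC5 in pools from morula to blastocyst (3 of 4 fits, log2 -2.73 to -0.91).

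Of the 12 homologous recombination genes, 8 fell in transcriptomes from morula to blastocyst and 0 rose, where 11.4% of all genes were called lower. BRCA1, which starts the processing of broken ends, had the largest of these falls, from 349, 313 and 400.1 to 28.5, 41.5 and 41.2 CPM (log2 -3.25, SE 0.34, adjusted p = 2.93e-07), without overlap. BRCA2, a mediator of strand exchange, fell as well (log2 -1.11, SE 0.31, adjusted p = 0.0104). So did the paralogs RAD51B (log2 -2.43, SE 0.88, adjusted p = 0.0477) and RAD51C (log2 -1.89, SE 0.54, adjusted p = 0.012). RAD51B was then at 1.76, 2.07 and 0.8 CPM in the shallow blastocyst transcriptomes, where 3 counts make 0.882, 0.622 and 0.6 CPM. The motor proteins that fell were RAD54B (log2 -1.85, SE 0.58, adjusted p = 0.0229) and RAD54L (log2 -1.23, SE 0.34, adjusted p = 0.00941), and RAD51AP1 fell too (log2 -1.02, SE 0.37, adjusted p = 0.0474). In pools 1 of the 12 fell over this step, RAD54L (log2 -1.35, SE 0.41, adjusted p = 0.029), and RAD52 and RAD54B rose (log2 1.47, SE 0.40, adjusted p = 0.018 and log2 2.88, SE 0.75, adjusted p = 0.0134). BRCA1 pools held 37.8 and 39.9 CPM in morulae and 29.8 and 36.2 CPM in blastocysts, a difference that was not called (log2 -0.23, SE 0.38, adjusted p = 0.783). For BRCA1, RAD51C, RAD52 and RAD54B the pool change was higher than the transcriptome change by the test of the difference, RAD52 being the one of these that did not fall in the transcriptome (log2 -0.28, SE 0.33, adjusted p = 0.584). In fits without 1 library, the call ended for BRCA2 in transcriptomes from morula to blastocyst (1 of 6 fits, without blastocyst transcriptome C, log2 -1.28 to -0.99) and RAD51B in transcriptomes from morula to blastocyst (all 6 fits, log2 -2.72 to -2.09). A further loss was that of RAD51C in transcriptomes from morula to blastocyst (1 of 6 fits, without blastocyst transcriptome B, log2 -2.25 to -1.59) and RAD54B in transcriptomes from morula to blastocyst (4 of 6 fits, log2 -2.10 to -1.65). It ended likewise for RAD54L in transcriptomes from morula to blastocyst (1 of 6 fits, without blastocyst transcriptome C, log2 -1.44 to -1.02) and RAD51AP1 in transcriptomes from morula to blastocyst (all 6 fits, log2 -1.15 to -0.90). The same held for RAD54L in pools from morula to blastocyst (3 of 4 fits, log2 -1.92 to -0.35) and RAD52 in pools from morula to blastocyst (2 of 4 fits, without morula pool A or blastocyst pool A, log2 1.11 to 1.79). It also ended for RAD54B in pools from morula to blastocyst (2 of 4 fits, without morula pool A or blastocyst pool B, log2 0.42 to 3.75).

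Earlier in development BRCA2 stood at 415, 563 and 482 CPM in GV transcriptomes and 828, 882 and 1137 CPM in MII transcriptomes, a change under the fold threshold (log2 0.96, SE 0.30, adjusted p = 0.0275), and fell to 424, 509 and 328 CPM in 2-cell embryos (log2 -1.17, SE 0.31, adjusted p = 0.011). Its pools held 109 and 77.9 CPM in GV and 80.3 and 105 CPM in MII oocytes, below all transcriptomes, and it was called lower at every stage, with log2 from -3.67 at the 8-cell to -2.38 at the GV stage. BRCA1 pools fell from 58 and 46.2 CPM in MII to 12.2 and 23.3 CPM in 2-cell embryos (log2 -1.56, SE 0.38, adjusted p = 0.0123). Calls that ended with 1 library left out were those for BRCA2 in transcriptomes from MII to 2-cell (2 of 6 fits, without MII transcriptome C or 2-cell transcriptome C, log2 -1.34 to -1.02) and BRCA1 in pools from MII to 2-cell (2 of 4 fits, without MII pool A or 2-cell pool A, log2 -2.10 to -1.17).

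RAD51D, RAD51C, XRCC2 and XRCC3, paralogs of one family that assists strand exchange, were divided. RAD51D had 201 and 372 CPM in GV pools against 21.6, 14.1 and 14.9 CPM in transcriptomes (log2 4.09, SE 0.50, adjusted p = 5.68e-07), and in MII oocytes 164 and 281 against 3.66, 3.14 and 1.19 CPM (log2 6.37, SE 0.56, adjusted p = 1.01e-09), an 82.9-fold difference. At the later stages it was also higher in pools, with log2 4.70 (SE 0.51) at the 2-cell, 3.42 (SE 0.49) at the 8-cell, 3.89 (SE 0.50) at the morula and 2.49 (SE 0.49) at the blastocyst stage. With F1 and F2 in place of F8 to F10, the blastocyst value was -2.03. The transcriptome fell from GV to MII (log2 -2.65, SE 0.47, adjusted p = 1.98e-04) and rose to the 2-cell stage (log2 1.63, SE 0.46, adjusted p = 0.0185). XRCC3 was at 336 and 389 CPM in GV pools and 7.97, 5.64 and 6.69 CPM in transcriptomes (log2 5.74, SE 0.50, adjusted p = 5.08e-09). Its log2 differences were 6.02 (SE 0.51), 5.35 (SE 0.49), 6.18 (SE 0.55), 3.92 (SE 0.48) and 3.51 (SE 0.48) in the order of the later stages. It fell at the 8-cell stage in transcriptomes (log2 -3.51, SE 0.50, adjusted p = 3.66e-06) and in pools (log2 -2.68, SE 0.52, adjusted p = 2.09e-04), and rose in transcriptomes to the morula (log2 2.32, SE 0.51, adjusted p = 0.00284). XRCC3 overlaps KLC1. With 1 library left out in turn, the call ended for RAD51D in transcriptomes from MII to 2-cell (2 of 6 fits, without MII transcriptome C or 2-cell transcriptome C, log2 1.27 to 1.91).

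RAD51C and XRCC2 lay on the low side. RAD51C rose in transcriptomes from 142, 125 and 193 CPM in GV to 424, 469.5 and 610 CPM in MII oocytes (log2 1.71, SE 0.51, adjusted p = 0.0195). It fell from 519, 585 and 437 CPM at the 2-cell to 40.4, 39.4 and 67.7 CPM at the 8-cell stage (log2 -3.39, SE 0.55, adjusted p = 1.77e-05). In pools it fell over the same step from 41.4 and 25.1 to 0.164 and 0.949 CPM (log2 -5.82, SE 0.77, adjusted p = 2.32e-06), the largest fall there among genes with counts in every group. It held 1.3 and 9.75 CPM in morulae (log2 3.25, SE 0.71, adjusted p = 0.00115). XRCC2 fell from 68.5, 35.6 and 32.8 to 8.91, 3.5 and 5.31 CPM in transcriptomes (log2 -2.95, SE 0.59, adjusted p = 2.26e-04) and from 16.1 and 12.5 to 1.48 and 0.136 CPM in pools (log2 -4.18, SE 0.77, adjusted p = 1.36e-04). RAD54B, a DNA motor protein, had 1.72 and 1.35 CPM in 2-cell pools, 25.4 and 8 in 8-cell pools (log2 3.43, SE 0.76, adjusted p = 8.15e-04) and 0.578 and 1.44 in morula pools (log2 -4.02, SE 0.78, adjusted p = 4.19e-04). Morula transcriptomes held 55, 66 and 68.5 CPM (log2 -5.94, SE 0.84, adjusted p = 3.50e-06). It was also lower in pools in MII oocytes (log2 -4.69, SE 0.78, adjusted p = 1.82e-05) and 2-cell embryos (log2 -4.43, SE 0.77, adjusted p = 4.15e-05), and at the GV and 8-cell stages. RAD51AP1 rose in transcriptomes from GV to MII (log2 1.80, SE 0.37, adjusted p = 0.00101) and in pools from 57.8 and 43.1 to 152 and 62.2 CPM at the 8-cell stage (log2 1.08, SE 0.45, adjusted p = 0.0497). RAD54L rose in transcriptomes from 8-cell to morula (log2 1.2, SE 0.33, adjusted p = 0.0157). Leaving out 1 library in turn ended the call for RAD51C in transcriptomes from GV to MII (3 of 6 fits, log2 1.55 to 1.91) and RAD51C in pools from 8-cell to morula (1 of 4 fits, without morula pool B, log2 1.16 to 5.03). A further loss was that of RAD51AP1 in pools from 2-cell to 8-cell (3 of 4 fits, log2 0.30 to 1.59) and RAD54L in transcriptomes from 8-cell to morula (2 of 6 fits, without 8-cell transcriptome A or morula transcriptome B, log2 1.06 to 1.31).

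The Fanconi anemia genes were divided between the subunits of the core complex. FANCE, FANCF, FANCG and FANCA were higher in pools in GV, MII and 2-cell stages, and FANCL, the ubiquitin ligase subunit, was lower at all 6. FANCG fell in transcriptomes from 20.2, 9.74 and 17.9 CPM in GV to 1.49, 1.82 and 1.19 CPM in MII oocytes (log2 -3.40, SE 0.53, adjusted p = 3.77e-05) and rose to 8.22, 6.24 and 9.7 CPM (log2 2.41, SE 0.52, adjusted p = 0.00218). Its pools held 127 and 163, then 168 and 165, then 161 and 169.8 CPM. The MII difference between pools and transcriptomes was 110.1-fold (log2 6.78, SE 0.61, adjusted p = 1.65e-09), and that at the 2-cell stage 20.5-fold (log2 4.36, SE 0.54, adjusted p = 4.44e-07). FANCE was at 31.6 and 23 against 2.58, 1.13 and 1.22 CPM in GV oocytes (log2 4.04, SE 0.69, adjusted p = 4.67e-05), and its log2 differences were 5.21 (SE 0.73) in MII and 4.61 (SE 0.70) in 2-cell stages. FANCF rose in pools from 61.5 and 64.2 to 205 and 161 CPM at MII (log2 1.54, SE 0.33, adjusted p = 0.00682) and fell to 74.5 and 60.8 CPM (log2 -1.44, SE 0.33, adjusted p = 0.00783). It differed from transcriptomes by log2 3.72 (SE 0.31) at the 8-cell, 3.38 (SE 0.31) at the morula and 3.03 (SE 0.31) at the blastocyst stage. With F3 to F5 in place of F8 to F10 the blastocyst value was -3.62. FANCF overlaps GAS2. FANCA rose from 1.06, 0.879 and 1.5 CPM in 2-cell to 2.91, 4.12 and 3.57 CPM in 8-cell transcriptomes (log2 1.61, SE 0.64, adjusted p = 0.0367). Its pools were at 19.5 and 13.5 CPM in 2-cell and 2.3 and 12.7 CPM in 8-cell embryos, and it was higher in pools of MII oocytes (log2 4.61, SE 0.74, adjusted p = 1.15e-05). The call ended when single libraries were left out for FANCF in pools from GV to MII (3 of 4 fits, log2 1.34 to 1.71) and FANCF in pools from MII to 2-cell (1 of 4 fits, without 2-cell pool B, log2 -1.61 to -1.24). It ended likewise for FANCA in transcriptomes from 2-cell to 8-cell (4 of 6 fits, log2 1.45 to 1.85).

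FANCL fell in transcriptomes from 449, 398 and 575 CPM in MII to 207, 179.7 and 152 CPM in 2-cell embryos (log2 -1.40, SE 0.42, adjusted p = 0.0267). It fell again from 57.6, 59.5 and 72 to 11.8, 5.18 and 6.2 CPM between morula and blastocyst (log2 -3.05, SE 0.46, adjusted p = 3.52e-05). Pools fell to 3.13 and 2.72 CPM over that step (log2 -2.18, SE 0.54, adjusted p = 0.00981). FANCD2 and FANCI form the clamp that FANCL ubiquitinates. FANCI fell in 8-cell transcriptomes to 43.4, 41.2 and 42.2 CPM from 280, 267 and 221 CPM (log2 -2.60, SE 0.47, adjusted p = 8.09e-05) and rose to 137, 98.2 and 97 CPM in morulae (log2 1.39, SE 0.46, adjusted p = 0.0397). Pools also fell and rose (log2 -2.39, SE 0.58, adjusted p = 0.00178 and log2 1.98, SE 0.57, adjusted p = 0.00901). FANCD2 fell in transcriptomes from 173, 169 and 121 to 32.4, 48.9 and 49.8 CPM (log2 -1.82, SE 0.41, adjusted p = 7.31e-04), while pools held 63.3 and 13.3 CPM at the former and 54.5 and 32.2 CPM at the latter stage, which overlap. BRIP1, a helicase that binds BRCA1, fell in transcriptomes from 312, 281 and 217 to 26.2, 25.9 and 39.8 CPM (log2 -3.14, SE 0.54, adjusted p = 3.69e-05) and from 24.6, 31.2 and 37.2 to 3.82, 3.94 and 4.8 CPM (log2 -2.88, SE 0.57, adjusted p = 5.69e-04). FANCM, which anchors the core complex to DNA, fell in transcriptomes from MII to 2-cell (log2 -1.45, SE 0.38, adjusted p = 0.0116). In pools it fell from 74.8 and 21.4 CPM in morulae to 10.2 and 5.45 CPM in blastocysts (log2 -2.62, SE 0.49, adjusted p = 0.00123). There the transcriptomes held 59.1, 145 and 86.4 CPM (log2 -3.63, SE 0.49, adjusted p = 3.28e-06). FANCC and FANCB were at 0 in both 8-cell pools. FANCC transcriptomes held 21.1, 10.9 and 5.31 CPM at that stage, at least 122-fold more, and its morula pools held 26.8 and 7.99 CPM, at least 170-fold more than the 8-cell pools. FANCB was at least 30.4-fold lower in 8-cell pools than in transcriptomes, and its 2-cell pools held 9.84 and 0.277 CPM. The fall from 2-cell pools was at least 49.5-fold for FANCB and 24.8-fold for FANCC. In fits without 1 library, the call ended for FANCL in transcriptomes from MII to 2-cell (5 of 6 fits, log2 -1.54 to -1.27) and FANCL in pools from morula to blastocyst (2 of 4 fits, without morula pool A or blastocyst pool B, log2 -2.92 to -0.56). The same held for FANCI in transcriptomes from 8-cell to morula (all 6 fits, log2 1.21 to 1.48) and FANCI in pools from 8-cell to morula (2 of 4 fits, without 8-cell pool A or morula pool B, log2 0.23 to 3.54). It also ended for FANCM in transcriptomes from MII to 2-cell (2 of 6 fits, without MII transcriptome C or 2-cell transcriptome C, log2 -1.59 to -1.26) and FANCB in pools from 2-cell to 8-cell (1 of 4 fits, without 2-cell pool A).

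Of the 10 damage signalling genes, 8 were lower in pools than in transcriptomes at each of the GV, MII, 2-cell and 8-cell stages, 6 were lower in morulae and 6 in blastocysts. Among all genes 17.0% to 30.3% were called lower in these stages. All 3 subunits of the MRN complex, which holds and trims broken ends, were among them in the first 4 stages. RAD50 transcriptomes held 512, 646 and 531 CPM in GV and 950, 898 and 1126 CPM in MII oocytes and pools 236 and 167 CPM in GV and 253 and 277 CPM in MII oocytes, with log2 differences of -1.48 (SE 0.32) and -1.90 (SE 0.32). The groups did not overlap at any stage. RAD50 overlaps IL5 and IRF1. RAD50 fell in pools from MII to 2-cell (log2 -1.28, SE 0.33, adjusted p = 0.0172). MRE11 rose in transcriptomes from 118, 179.6 and 131 to 361, 433 and 603 CPM (log2 1.71, SE 0.60, adjusted p = 0.0492). It fell from 332, 355 and 259.8 CPM at the 2-cell to 53.9, 54.9 and 63.6 CPM at the 8-cell stage (log2 -2.46, SE 0.62, adjusted p = 0.00202). Its pools fell from 18.9 and 18.6 to 2.67 and 0.813 CPM (log2 -3.45, SE 0.81, adjusted p = 0.00136). In GV oocytes they held 18.4 and 6.49 CPM (log2 -3.52, SE 0.77, adjusted p = 7.17e-04) and in blastocysts 4.22 and 0.638 CPM (log2 -3.43, SE 0.78, adjusted p = 0.00119). NBN rose in transcriptomes from 17.3, 18.4 and 14.7 CPM to 60.5, 56 and 50.01 CPM at the 8-cell stage (log2 1.73, SE 0.55, adjusted p = 0.0113). Its morula pools, at 121 and 13.4 CPM, lay far apart, and the fall to 9.4 and 17.7 CPM in blastocyst pools (log2 -2.31, SE 0.68, adjusted p = 0.0269) became 0.03 without morula pool A. Calls that ended with 1 library left out were those for RAD50 in pools from MII to 2-cell (3 of 4 fits, log2 -1.36 to -1.20) and MRE11 in transcriptomes from GV to MII (all 6 fits, log2 1.48 to 1.91). A further loss was that of NBN in pools from morula to blastocyst (3 of 4 fits, log2 -3.15 to 0.03).

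ATM and ATR, the kinases that start the response to breaks and to stalled replication, were lower in pools than in transcriptomes at 6 and 4 stages. ATM was at 52.3, 54 and 33.1 CPM in 2-cell transcriptomes and rose to 127, 161 and 173 CPM at the 8-cell stage (log2 1.72, SE 0.61, adjusted p = 0.0202). The 2-cell pools held 0.778 and 1.69 CPM (log2 -5.23, SE 0.85, adjusted p = 1.82e-05) and 8-cell pools 0 and 2.85 CPM (log2 -6.71, SE 0.92, adjusted p = 1.54e-06). Morula pools held 3.08 and 3.11 CPM against 116, 177 and 173 CPM (log2 -5.65, SE 0.87, adjusted p = 1.03e-05). Blastocyst transcriptomes were lower than those of morulae, at 37.6, 58 and 38.8 CPM (log2 -1.79, SE 0.61, adjusted p = 0.0345). ATR held 67.4, 81.1 and 104 CPM in MII transcriptomes and 0.18 and 1.75 CPM in pools (log2 -6.43, SE 1.03, adjusted p = 1.04e-05). Its transcriptome gave no call at any transition, and its pools rose from 2.75 and 4.34 CPM at the 8-cell stage to 5.16 and 42.4 CPM in morulae (log2 2.74, SE 0.88, adjusted p = 0.017), where the higher value is that of morula pool B. With 1 library left out in turn, the call ended for ATM in transcriptomes from 2-cell to 8-cell (2 of 6 fits, without 2-cell transcriptome C or 8-cell transcriptome C, log2 1.53 to 1.85) and ATM in transcriptomes from morula to blastocyst (5 of 6 fits, log2 -2.01 to -1.68). It ended likewise for ATR in pools from 8-cell to morula (2 of 4 fits, without 8-cell pool A or morula pool B, log2 0.56 to 3.58).

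RAD9A, RAD1 and RAD17 belong to the clamp that activates ATR and to its loader. RAD9A was at 162 and 179 CPM in MII pools against 2.63, 1.22 and 1.31 CPM in transcriptomes (log2 6.63, SE 0.59, adjusted p = 1.39e-09). Its log2 differences were 4.29 (SE 0.53) in GV, 4.72 (SE 0.53) in 2-cell, 5.64 (SE 0.56) in 8-cell and 3.07 (SE 0.51) in morula libraries. Between morula and blastocyst the transcriptome rose from 10.6, 6.44 and 4.09 to 67.3, 49.5 and 65.8 CPM (log2 3.11, SE 0.49, adjusted p = 4.75e-05). Blastocyst pools, at 33.6 and 39.3 CPM, were not called different from it (log2 -0.74, SE 0.51, adjusted p = 0.246). Transcriptomes had also risen from MII to 2-cell (log2 2.17, SE 0.50, adjusted p = 0.00404). RAD9A overlaps PPP1CA. RAD1 fell from 8.59, 8.4 and 7.11 CPM in morula to 0.588, 1.04 and 0.6 CPM in blastocyst transcriptomes (log2 -3.41, SE 1.13, adjusted p = 0.0301). In these shallow blastocyst libraries 3 counts make 0.882, 0.622 and 0.6 CPM. RAD17 fell in pools from 80.5 and 76.7 CPM at the 8-cell stage to 6.7 and 18.8 CPM in morulae (log2 -2.62, SE 0.52, adjusted p = 4.90e-04). RAD18, a ubiquitin ligase for the sliding clamp PCNA, fell to the 8-cell stage in pools, from 72.8 and 64 to 3.16 and 12.2 CPM (log2 -3.15, SE 0.69, adjusted p = 7.50e-04), and in transcriptomes (log2 -2.38, SE 0.54, adjusted p = 8.55e-04). RAD9B, at 1.37, 0.203 and 1.55 CPM in MII transcriptomes, was at 0 in GV, MII, 2-cell and morula pools, which were at least 4.76-, 9.67-, 8.18- and 16.7-fold lower. Leaving out 1 library in turn ended the call for RAD1 in transcriptomes from morula to blastocyst (all 6 fits, log2 -3.73 to -3.26) and RAD9B between pools and transcriptomes at the GV stage (2 of 5 fits, without GV pool A or GV pool B).

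The members taken by symbol alone included 2 cohesin subunits and 3 ATPases named after repair genes. RAD21, a subunit of the cohesin ring, rose in transcriptomes from 121, 126 and 109.6 to 338, 343 and 384 CPM at MII (log2 1.58, SE 0.25, adjusted p = 6.26e-05). Its pools stayed between 8.26 and 19.5 CPM at all stages, with log2 differences of -3.16 (SE 0.32) in GV oocytes and -4.68 (SE 0.35) in blastocysts. RAD21L1, its meiotic form, was at 0 in all 2-cell transcriptomes and at 0.171, 0 and 1.04 CPM at the 8-cell stage (at least 1.75-fold higher). It was at 0 in all pools up to the 8-cell stage, at least 3.83-fold lower than MII transcriptomes, and at 1.01 and 1.24 CPM in morula pools (at least 11-fold above 8-cell pools). ERCC6L, which resolves DNA bridges in anaphase, moved in opposite directions from 2-cell to 8-cell: transcriptomes fell from 150, 144 and 75.3 to 38.8, 64.8 and 61.3 CPM (log2 -1.16, SE 0.48, adjusted p = 0.0468). Its pools rose from 11.4 and 2.03 to 75.5 and 31.6 CPM (log2 2.99, SE 0.63, adjusted p = 5.31e-04). RAD54L2 did the same, with transcriptomes at 36.1, 38.9 and 35.7 CPM in 2-cell and 11.8, 10.8 and 19.1 CPM in 8-cell embryos (log2 -1.40, SE 0.45, adjusted p = 0.0116). Its pools were at 29.2 and 39.1 CPM in 2-cell and 172 and 75.1 CPM in 8-cell embryos (log2 1.86, SE 0.55, adjusted p = 0.0085). It was higher in blastocyst pools (log2 2.44, SE 0.51, adjusted p = 5.05e-04). RAD51AP2 was at 0, 0 and 0.376 CPM in 2-cell and 1.2, 5.02 and 2.7 CPM in 8-cell transcriptomes, a rise by the test that was lost in 3 of 6 fits leaving out 1 library, and was at least 20.9-fold lower in morula pools, both at 0. The call ended when single libraries were left out for ERCC6L in transcriptomes from 2-cell to 8-cell (5 of 6 fits, log2 -1.42 to -0.97) and RAD54L2 in transcriptomes from 2-cell to 8-cell (1 of 6 fits, without 8-cell transcriptome B, log2 -1.70 to -1.25). The same held for RAD54L2 in pools from 2-cell to 8-cell (2 of 4 fits, without 2-cell pool A or 8-cell pool A, log2 1.14 to 2.34) and RAD21L1 in transcriptomes from 2-cell to 8-cell (4 of 6 fits). It also ended for RAD21L1 between pools and transcriptomes at the MII stage (3 of 5 fits) and RAD21L1 in pools from 8-cell to morula (2 of 4 fits, without 8-cell pool A or 8-cell pool B). A further loss was that of RAD51AP2 between pools and transcriptomes at the morula stage (1 of 5 fits, without morula pool B).

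From 2-cell to 8-cell, 4 repair genes rose in both kinds of library (5%, all genes 16.2%): MSH6, PARP10, PARP6 and PARP14. Falling in both were 14 (17.5%, all genes 13.6%), and ERCC6L and RAD54L2 went in opposite directions. A further 17 were called in transcriptomes alone and 16 in pools alone. At the next step, from 8-cell to morula, MSH6, PARP1 and FANCI rose in both and PARP9 went in opposite directions.

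**Figure D5:**
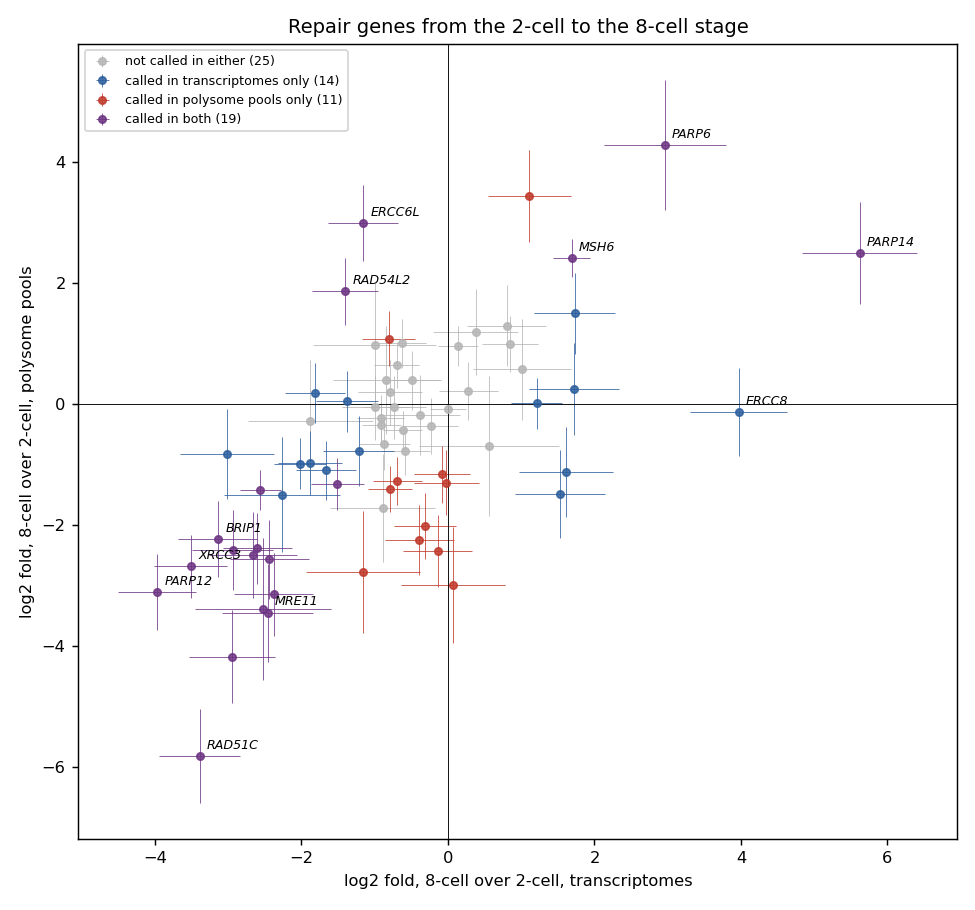
Log2 fold from the 2-cell to the 8-cell stage in transcriptomes (x axis) and polysome pools (y axis), with bars of 1 SE, for 69 repair genes with counts in every group. Of these 19 were called in both, 14 in transcriptomes only, 11 in pools only and 25 in neither, and most of those called in both lie where both changes are below 0.

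The change in pools was also tested against the change in transcriptomes. From GV to MII it was higher for 7 repair genes and lower for 3 (all genes 10.6%, with 7.14% higher and 3.49% lower). From 2-cell to 8-cell it was higher for 5 and lower for 6 (12.1%, with 3.44% and 8.71%). From 8-cell to morula it was higher for 4 and lower for 7 (12.4%, with 7.04% and 5.41%), and from morula to blastocyst higher for 10 and lower for 5 (12.3%, with 6.03% and 6.23%). From MII to 2-cell edgeR's quasi-likelihood test called 0 (all genes 1.81%), against 10 at an unadjusted p below 0.05, 1 with its likelihood ratio test and 4 with DESeq2. Without 8-cell pool B the counts were 31 at the 2-cell to 8-cell and 30 at the 8-cell to morula transition, and without morula pool B 21 at the latter and 26 from morula to blastocyst. A further list of 100 repair genes outside the naming rule gave 23 rising and 39 falling in transcriptomes from 2-cell to 8-cell (all genes 26.6% and 23.5%). In pools 16 rose and 23 fell (all genes 21.0% and 25.2%). In that list 23 genes were higher and 33 lower in GV pools relative to transcriptomes, 29 and 43 in MII, 24 and 47 in 2-cell, 28 and 41 in 8-cell, 31 and 42 in morula and 25 and 24 in blastocyst pools. In the same order 21.6%, 30.4%, 28.5%, 27.4%, 25.9% and 19.4% of all genes were called higher. Called lower were 17.0%, 26.2%, 21.3%, 30.3%, 24.5% and 19.5%. The shares of the list called higher were thus near those of all genes.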

How the data were processed

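Polysome profiles and transcriptomes of cattle oocytes and embryos were sequenced from Smart-seq v4 cDNA with Nextera XT libraries, which do not mark strand. The authors deposited 1 table of expected counts, estimated per gene by Salmon and not normalized, for 16706 gene symbols in 138 libraries (120 fraction libraries and 18 transcriptomes). Of its values, 11.65% were not whole, and they were rounded before testing. The submitters' processing notes name genome build UMD3.1, Salmon and edgeR, while the study's methods name a later annotation, so no coordinates are given. Tissue was pooled per gradient, and the sources give different numbers of oocytes or embryos for a gradient. Biological duplicates and triplicates are stated. The p-values rest on a spread between such samples, estimated over all groups of a fit together and not from the compared groups alone. Polysome pools correlated at only 0.822 at the 8-cell and 0.868 at the morula stage. Transcriptomes of a stage correlated at 0.957 to 0.993. SEs and p-values for pools at these stages may therefore understate the spread of the pools, which was not tested.

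The polysome fractions (F8 to F10) of each of the 12 gradients were added up. The 12 pools and 18 transcriptomes were fitted together in 12 groups with edgeR 4.0.16 (R 4.3.3, limma 3.58.1): filterByExpr left 14612 genes, scaled with TMM factors, tested with the quasi-likelihood F test and adjusted by Benjamini-Hochberg over all of them. Calls needed an adjusted p below 0.05 and a fold above 2. Tests covered 5 transitions in each kind of library, pools against transcriptomes at 6 stages, the difference between both changes, and F8 to F10 against F3 to F5 in a second model (14873 genes). Heavy and light pools of 1 gradient were paired by origin (their deviations correlated at -0.08 to 0.17), and the gradient block was an alternative. Groups at 0 were bounded by a floor of 3 counts per library, which covers counting error only. The members and gene lists were chosen with earlier results of these data known. Named genes were the called members with the largest folds, up to 5 in each direction per comparison (up to 10 from 2-cell to 8-cell), plus a fixed set of core genes. Results for 4 of the 81 genes are not reported here, although counts and medians include them. RefSeq (ARS-UCD2.0) gave names and neighbours for all 81 genes. Alternatives were edgeR's likelihood ratio test, DESeq2 1.42.0, its size factors, no filter, pools of F9 and F10, a replicate block, leaving out each library, and, added after the data were seen, pools of F3 to F5 and of F1 and F2. The tests were checked on simulated data with the same spread in every group. That check does not cover groups whose libraries were less alike, such as the 8-cell and morula pools. Figures were drawn with matplotlib 3.10.9.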

Additional observations from a re-analysis of the deposited data

Results flagged for a closer look

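The polysome pool and the transcriptome of the same stages changed by different amounts for the genes below, by the test of the difference itself (edgeR's quasi-likelihood test, Benjamini-Hochberg adjusted over all genes). Values are log2 of the pool change minus the transcriptome change, and positive values mean a higher change in pools. From GV to MII the pool change was higher for FANCG (3.60), OGG1 (3.01), FANCF (2.83) and RAD9A (2.34) and lower for ATR (-3.93), PMS2 (-3.09) and MSH6 (-2.14), with adjusted p from 9.21e-05 to 0.0418. From 2-cell to 8-cell the pool change was higher for ERCC6L (4.16), RAD54L2 (3.26), FANCD2 (2.00), RAD51AP1 (1.90) and ERCC2 (1.63) and lower for ERCC8 (-4.10) and FANCE (-3.02), with adjusted p from 0.0015 to 0.0402. Where a pool group was at 0 no size is given, and the adjusted p was 1.31e-04 for FANCC, 0.00147 for PARP9 and 0.0106 for PARP4. From 8-cell to morula the pool change was higher for RAD51C (3.69) and lower for LIG4 (-4.75), RAD54B (-3.82), ERCC6L (-3.11) and RAD9A (-2.58), with adjusted p from 0.0063 to 0.0307. Where a pool group was at 0 no size is given, and the adjusted p was 3.11e-06 for PARP9, 4.27e-06 for FANCC and 0.00813 for PARP8. From morula to blastocyst the pool change was higher for RAD54B (4.72), BRIP1 (4.22), RAD51C (3.63), ERCC8 (3.25) and ATM (3.02) and lower for PARP9 (-3.99), RAD9A (-3.80), XRCC1 (-3.09), FANCM (-2.84) and RAD23B (-2.37), with adjusted p from 0.00169 to 0.0415.

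Many of these calls ended when 1 of the 10 libraries behind a difference was left out. From GV to MII this was so for RAD9A and PMS2 in 8 fits each (2.13 to 2.78 and -4.39 to -2.42), for ATR without GV pool B or MII pool A (-6.31 to -1.80) and for OGG1 without GV pool A or MII pool A (2.38 to 3.44). From 2-cell to 8-cell it was so for FANCE in 8 fits (-4.67 to -2.26), RAD51AP1 and ERCC2 in 7 each (1.12 to 2.41 and 1.38 to 1.86), FANCD2 in 6 (1.28 to 3.54) and PARP4 without 2-cell pool A. From 8-cell to morula LIG4 lost its call in 5 fits (-10.14 to 1.18) and RAD9A in 3 (-4.26 to -1.81). At this step RAD51C lost it without morula pool B (1.59 to 5.47), RAD54B and ERCC6L without 8-cell pool A (-4.62 to -2.76 and -3.65 to -2.35) and PARP8 without morula pool A. From morula to blastocyst ATM lost it in 9 fits (2.91 to 3.25), ERCC8 in 6 (2.78 to 3.97) and XRCC1 in 5 (-3.50 to -2.85). RAD54B and RAD51C lost it there without blastocyst pool B (2.26 to 5.59 and 2.84 to 5.72), PARP9 without morula pool B (-7.31 to -3.04) and RAD23B without blastocyst pool A (-2.70 to -2.10).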

How the results depend on the processing

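Counts of called repair genes stayed within 1.5 times of the main count under most alternatives. edgeR's likelihood ratio test called 13 in pools from MII to 2-cell and 21 from morula to blastocyst, 1, 18 and 18 in the differences of changes from MII to 2-cell, 2-cell to 8-cell and 8-cell to morula, and 2, 22, 8 and 3 between heavy and light pools of MII, 8-cell, morula and blastocyst. DESeq2 called 14 and 20 in those pool transitions, 17, 4, 18 and 17 in the differences from GV to MII, MII to 2-cell, 2-cell to 8-cell and 8-cell to morula, and 2, 4, 21, 8 and 4 between heavy and light pools of GV, MII, 8-cell, morula and blastocyst. Pools of F9 and F10 called 1 in the difference from MII to 2-cell, and F1 and F2 called 22 between pools and transcriptomes of blastocysts. The cause was not tested. Libraries of different stages or kinds that share a letter had deviations correlating at -0.35 to 0.13. MII transcriptome A and 2-cell transcriptome C, with different letters, reached 0.28. A pairing by letter was thus not seen, but deviations from means of 2 or 3 libraries cannot exclude one. A replicate block on the letters called 7 in the difference from 2-cell to 8-cell. Heavy and light pools share a gradient, and with the gradient as a replicate block 1 was called between them in morulae. DESeq2's size factors moved the median of all genes between 8-cell pools and transcriptomes from -0.26 to -0.50. Reversed with F3 to F5 were FANCF (-3.62), PMS2 and XRCC6 in MII (1.38 and 1.28), XRCC6 in 2-cell (0.52) and ERCC1 and XPC in 8-cell libraries (-0.65 and 0.14). Reversed in other settings were XPC (2.80), RAD51AP2 (0.12), RAD51D (-2.03) and MLH3 (1.10) with F1 and F2, LIG4 from 8-cell to morula without 8-cell pool A (0.15 in pools and 1.18 in the difference), NBN from morula to blastocyst without morula pool A (0.03), and between pools and transcriptomes XRCC1 without 8-cell pool B (-1.77) and OGG1 without blastocyst pool A (-0.26). Over single libraries left out, LIG4 ran from -11.17 to 0.15 in pools and from -10.14 to 1.18 in the difference, NBN from -3.15 to 0.03, XRCC1 from -1.77 to 2.51 and OGG1 from -0.26 to 2.33.

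Leaving out 1 library gave 13 to 20, 6 to 11, 29 to 34, 6 to 10 and 16 to 20 calls for the transcriptome transitions in order of stage, and 2 to 5, 3 to 6, 29 to 47, 21 to 38 and 7 to 22 for those of pools. Pools against transcriptomes gave 27 to 42, 54 to 61, 49 to 55, 50 to 54, 47 to 52 and 25 to 31 from GV to blastocyst. The differences of changes gave 5 to 10, 0 to 1, 6 to 31, 7 to 30 and 7 to 26. Heavy against light gave 0 in GV, MII and 2-cell, then 2 to 11, 0 to 10 and 1. With 2 pools per stage, a lone pool was assumed to vary like the other groups.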
